A study of Mus musculus with 10 samples.

Results

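Genes of red blood cells were examined in the abdominal aorta of mice that lack apolipoprotein E. The set named 6 genes: Alas2 and Fech of haem synthesis, the globin genes Hba-a1 and Hbb-b1, the anion exchanger gene Slc4a1 and the enzyme gene Bpgm. A probe stood for a gene when the platform annotation gave it that gene alone, and the brightest such probe over all arrays was to be used. By this rule 4 of the 6 genes were measured, among 17991 genes in all, and each had a single probe: Alas2, Fech, Slc4a1 and Bpgm. Hba-a1 stood only on probes that also list another gene, and the annotation used here gave no probe to Hbb-b1, so no value is given for either under its own name. The genes were chosen with earlier results of these data known, and which of a gene's probes to use was to be chosen by mean log2 intensity over the 10 arrays, which with a single probe per gene decided nothing.

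Infrarenal arrays, from below the kidney arteries, were set against suprarenal arrays, from above them. The mice were male, 14 weeks old and ApoE-/-, in both groups. Tissue was combined from 2 animals at a time. The 5 resulting pools, numbered 1, 6, 8, 11 and 12, each gave 1 infrarenal and 1 suprarenal array, so n = 5 arrays per region. No array of a wild-type mouse was analysed here. Of the markers of vessel wall, the smooth muscle gene Acta2 was among the brightest probes, reading between 8.44 and 8.76 log2 units on the 10 arrays. Values are log2 of a single-colour intensity that the authors had scaled to an array median between 1.001 and 1.003, so a value of 0 lies near the median probe. Arrays correlated with each other at r between 0.962 and 0.975 over probes, and their number limits the precision.

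Haem is built by a chain of enzymes that begins and ends in the mitochondrion. ALAS1 makes the first intermediate in all cells and ALAS2 does so in erythroid cells, where haem is put into globin. Circulating red cells of the mouse carry no nucleus, and their young form, the reticulocyte, still holds messenger RNA for globins, ALAS2 and membrane proteins, so RNA from blood in a vessel can appear in an extract of its wall. Fewer cells of a type and less RNA per cell cannot be told apart in such bulk samples.

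The spread of the erythroid genes followed pool 1 and showed no common order of the regions, and neither pool nor region passed its test. All 4 measured genes were highest on both arrays of pool 1, infrarenal and suprarenal, and lower on the other 8 arrays. This order was also found in 3.57% of the 35714 probes with a value on every array, and in 4.24% of the probes that stand for a gene. The same order with another pool on top was found in 2.65% of probes for pool 6, 1.29% for pool 8, 1.48% for pool 11 and 1.69% for pool 12.

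Alas2, the erythroid enzyme of the first step, read 6.32, 5.44, 4.75, 4.53 and 4.84 log2 units on infrarenal arrays 1, 6, 8, 11 and 12. It read 6.74, 4.82, 5.22, 4.34 and 4.51 on the suprarenal arrays of the same pools. The regions overlapped almost fully. The lower pool 1 array lay 0.88 log2 units above the next array, and the 10 arrays spanned 2.40 log2 units, a 5.28-fold range of intensity. The SD over arrays was 0.80, beside a median of 0.275 over all probes. Neighbours in the order of the other 8 arrays, from 4.34 to 5.44, lay close together and came from either region.

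Bpgm, whose enzyme makes the red cell's 2,3-bisphosphoglycerate and so lowers the oxygen affinity of haemoglobin, had the same leading arrays. It read 4.08, 3.40, 3.21, 2.98 and 2.56 log2 units on infrarenal arrays 1, 6, 8, 11 and 12, and 4.48, 3.0032, 3.55, 2.93 and 3.20 on the suprarenal ones. The lower pool 1 array was 0.53 above the next, and the range was 1.93 log2 units or 3.80-fold. Over pools 6, 8, 11 and 12 the regions overlapped, at 2.56 to 3.40 on infrarenal and 2.93 to 3.55 on suprarenal arrays.

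Slc4a1, which encodes the anion exchanger band 3 of the red cell membrane, was a dim probe. It read -1.77, -2.35, -2.61, -3.47 and -2.95 log2 units on infrarenal arrays 1, 6, 8, 11 and 12, and -0.39, -3.13, -2.76, -2.94 and -2.10 on the suprarenal ones. All 10 values lay above the floor of -5.17. Suprarenal array 1 stood highest, and infrarenal array 1 was 0.33 above the best array of the other pools. The range of 3.08 log2 units became 1.52 with an offset added in place of the floor, with pool 1 still highest.

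Fech, ferrochelatase, puts iron into the haem ring in the last step and is used by every cell that makes haem. It read 5.04, 4.29, 4.38, 4.30 and 4.22 log2 units on infrarenal arrays 1, 6, 8, 11 and 12, and 5.16, 4.70, 4.60, 4.54 and 4.38 on the suprarenal ones. Pool 1 was again highest, by 0.34, but the range was only 0.94 log2 units or 1.91-fold. On the other 8 arrays each suprarenal value exceeded the infrarenal value of its pool.

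**Figure D1:**
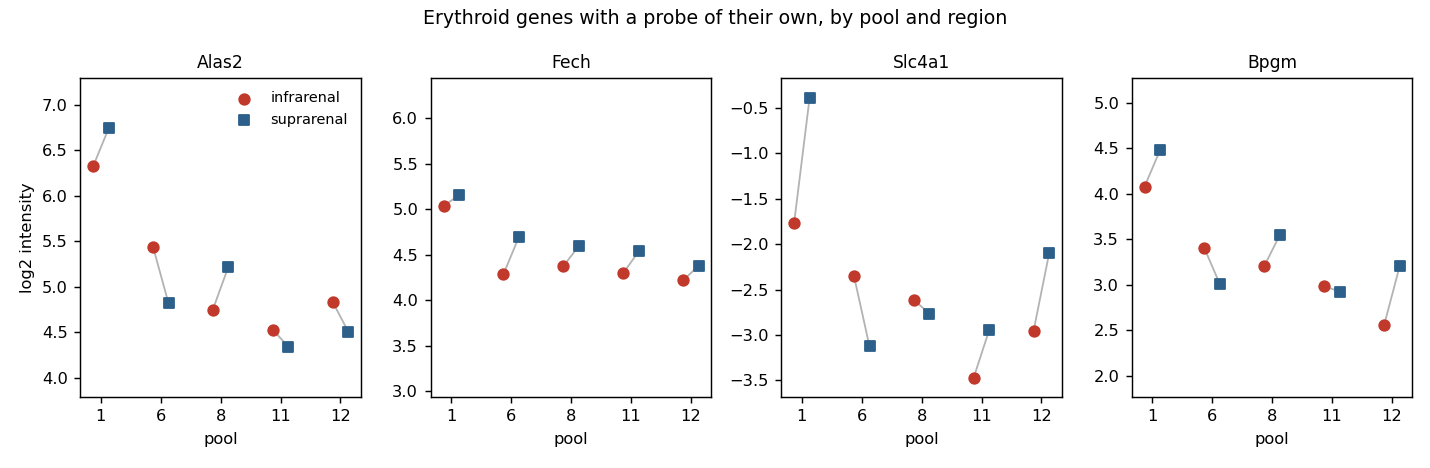
Log2 intensity of Alas2, Fech, Slc4a1 and Bpgm, each panel spanning 3.5 log2 units, for the infrarenal (circles) and suprarenal (squares) array of each pool, joined by a line. Both pool 1 arrays lie above the other 8 in each panel, for Alas2 at 6.32 and 6.74 against at most 5.44.

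The pools were also compared with an F-test in the same limma fit, chosen after the values were seen. No member passed, with an adjusted p of 0.236 for Alas2, 0.344 for Fech, 0.423 for Bpgm and 0.838 for Slc4a1. Of 36061 probes 5 passed, or 0.0139%, and 2124 had an unadjusted p under 0.05, or 5.89%. The unadjusted p of the 4 members ran from 0.000338 for Alas2 to 0.0398 for Slc4a1. More total RNA was labelled for the pool 1 arrays, 0.44 µg infrarenal and 0.54 µg suprarenal, than for most others, at 0.34 to 0.51 µg. With the RNA input as a covariate the adjusted p was 0.475 for Alas2, and the part of RNA input in the pool pattern was not tested otherwise.

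Of the adult globin genes, Hba-a1, Hbb-bt and Hbb-b2 stood only on probes that list several genes, and Hbb-b1 stood on none. The dimmest of the 4 shared globin probes, listed for the embryonic beta-like globins Hbb-y and Hbb-bh1, read 4.39, 2.95, 2.88, 2.31 and 2.62 log2 units on infrarenal arrays 1, 6, 8, 11 and 12. On the suprarenal arrays it read 4.73, 2.17, 3.25, 2.31 and 2.29. Pool 1 lay 1.14 above the next array, and the 5.89-fold range was of the size seen for Alas2. A further probe listed for Hbb-y alone read 1.02 and 0.84 on the infrarenal and suprarenal arrays of pool 1, and -0.37 to 0.40 on the others. The embryonic alpha-like globin gene Hba-x, on a dim probe, did not have this order: it read -4.35 and -2.88 in pool 1 and from the floor to -2.29 on the others, with r = 0.0748 with Alas2. Beta-like globin genes are close copies of each other, so signal of adult globin RNA on these probes cannot be told apart from that of embryonic globin.

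The brighter globin probes ranged little. The probe listed for Fcrls and Hba-a1 read 8.81, 8.55, 8.60, 8.76 and 8.63 on infrarenal arrays 1, 6, 8, 11 and 12, and 8.92, 8.86, 8.73, 8.63 and 8.66 on the suprarenal ones, a 1.30-fold range. It was among the 3 brightest probes of every array, at 96.1% to 100% of the highest intensity there. Its r with Alas2 was 0.564 (rho 0.309), and -0.196 without pool 1. The probe listed for Hbb-bt, Hbb-y, Hbb-bh1 and Hbb-b2 was at 80.4% to 100% of the highest intensity and spanned 1.39-fold, from 8.34 to 8.82. Within this narrow range it read 8.74 and 8.82 on the infrarenal and suprarenal arrays of pool 1, and at most 8.79 on the others. Its r with Alas2 was 0.807 (rho 0.770), and 0.553 without pool 1. A probe listed for Ost4 and Hba-a1 read 7.27 to 7.64, with r = -0.098 with Alas2. The files used here mark no saturated spots, and whether signals at the top of the scale were capped was not tested.

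**Figure D2:**
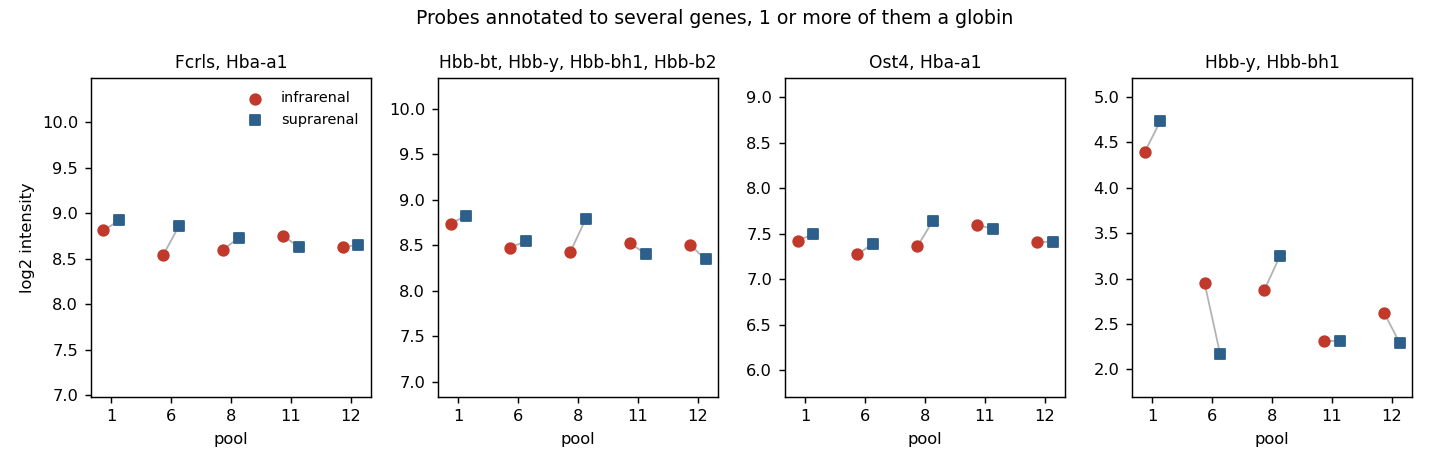
Log2 intensity of the 4 probes that list several genes with a globin among them, each panel spanning 3.5 log2 units, for the infrarenal (circles) and suprarenal (squares) array of each pool. The probe for Hbb-y and Hbb-bh1 ranges 5.89-fold with pool 1 highest, while the probes at the top of the intensity scale range 1.30-fold and 1.39-fold.

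The genes whose profile was most like that of Alas2 were picked by their r with it, so a high r was built in. The order of the arrays differed in places. Over the 10 arrays, which share animals within a pool, the 8 most alike had Pearson r from 0.978 to 0.991 (Spearman's rho 0.903 to 0.964), given as a description. Without both pool 1 arrays, the farthest from the Alas2 median, r was 0.886 to 0.949 over 8 arrays. In order they were Gm1070, C130050O18Rik, Sag, Odf1, Tmprss6, Jak1, 2810408A11Rik and Olfr1124. Tmprss6, a membrane protease known from liver for its control of hepcidin, read 4.64 and 5.07 on the infrarenal and suprarenal arrays of pool 1, and 1.87 to 3.30 on the other 8. Odf1, named for the outer dense fibre of sperm tails, read 4.78 and 4.98 against 2.40 to 3.36. Jak1, a kinase of cytokine receptors, moved least, by 1.63-fold in all. The theta globin gene Hbq1a, named after its values were seen, had r = 0.973, and 0.899 without pool 1.

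The members themselves were less alike. Alas2 correlated with Bpgm at r = 0.909 (rho 0.745), with Slc4a1 at 0.839 (rho 0.539) and with Fech at 0.801 (rho 0.370) over 10 arrays. Without pool 1 these became 0.546, 0.288 and -0.045, so the relation of Alas2 to Fech and Slc4a1 rests on the pool 1 arrays. The probe for Hbb-y and Hbb-bh1 kept r = 0.767 without pool 1, from 0.963 over all arrays.

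Windows of 250 bases before the annotated gene start, from RefSeq on GRCm38.p6, are given for 3 of the 6 genes. None was at hand for Slc4a1 or Hbb-b1, and the window of Fech was left out and not searched. The 3 windows are a chosen part of the set. Alas2 and Bpgm led on the same arrays, as Fech also did, and Hba-a1 is a textbook target of erythroid factors. Capitals mark matches on either strand to 4 forms of the GATA motif, which GATA1 can bind, and to CCNCNCCCN, the pattern bound by the erythroid factor KLF1. The GATA forms searched were AGATAA as well as TGATAA, each also with G as its last base (AGATAG for example). Each sequence is written 5′ to 3′ on the + strand.
Alas2, chrX:150547167-150547416: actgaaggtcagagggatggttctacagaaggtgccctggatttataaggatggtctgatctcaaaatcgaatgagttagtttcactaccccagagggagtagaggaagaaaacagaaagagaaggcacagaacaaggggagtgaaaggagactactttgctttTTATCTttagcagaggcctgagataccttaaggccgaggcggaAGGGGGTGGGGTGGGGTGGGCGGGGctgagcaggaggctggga
Bpgm, chr6:34476106-34476355: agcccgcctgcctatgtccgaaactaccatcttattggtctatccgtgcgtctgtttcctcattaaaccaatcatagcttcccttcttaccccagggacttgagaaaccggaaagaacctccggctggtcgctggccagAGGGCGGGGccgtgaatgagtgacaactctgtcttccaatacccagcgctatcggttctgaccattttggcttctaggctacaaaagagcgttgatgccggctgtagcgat
Hba-a1, chr11:32283422-32283671: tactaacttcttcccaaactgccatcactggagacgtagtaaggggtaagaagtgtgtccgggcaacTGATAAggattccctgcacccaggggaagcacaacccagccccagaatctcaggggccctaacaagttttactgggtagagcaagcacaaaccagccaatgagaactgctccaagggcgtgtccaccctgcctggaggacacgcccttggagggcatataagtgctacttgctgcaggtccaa
The Alas2 window held a GATA match at bases -86 to -81 from the start and 4 CCNCNCCCN matches between -43 and -19, of which the first 3 overlap. The Bpgm window held 1 CCNCNCCCN match at -111 to -103 and the Hba-a1 window 1 GATA match at -183 to -178. Of 27025 genes with such a window, 27.1% held a GATA match, 45.4% a CCNCNCCCN match and 8.26% both. A match is a description of the letters, not of binding.

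Of the 7 other measured enzymes of haem synthesis, 2 shared the pool order of Alas2, beside 4.24% of all probes that stand for a gene. Of all 8 measured genes of the pathway, both pool 1 arrays were highest for Alas2, Fech and Urod, the decarboxylase of uroporphyrinogen. Urod read 4.46 and 4.36 on the infrarenal and suprarenal arrays of pool 1 and 3.58 to 4.25 on the others. Alas1, the general form of the first enzyme, read 5.14 and 5.34 in pool 1 but was highest on suprarenal array 6, at 5.80. Alad, the second enzyme, was highest there too, at 3.80, as was Uros, at 1.21. Cpox was highest on infrarenal array 12, at 2.10, and Ppox ranged 1.26-fold in all.

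Profiles of 5 of the 7 enzymes other than Alas2 resembled that of brown adipocyte markers, and those of Cpox and Ppox did not. The level of 8 such markers, their mean log2 value, ran from 2.30 to 4.32 on infrarenal and 2.27 to 4.60 on suprarenal arrays. Alad correlated with it at r = 0.934 (rho 0.891), Uros at 0.881 (rho 0.855), Urod at 0.827 (rho 0.891) and Alas1 at 0.783 over the 10 arrays. Without the 2 arrays farthest from the median level, r was 0.892 for Alad, 0.798 for Uros, 0.736 for Urod and 0.635 for Alas1. Of the 8 markers, Prdm16 ran against their level, at r = -0.577. Fech correlated with the level at 0.698 (rho 0.709), 0.737 without pool 1 and 0.699 without the 2 farthest arrays. Cpox had r = -0.265 (rho -0.115) and Ppox 0.120 (rho 0.0909) with it. Alas2 had r = 0.328 with it, and -0.205 without pool 1. Brown adipocytes are rich in mitochondria and cytochromes, and surround the vessel, and their part in these profiles was not tested.

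**Figure D3:**
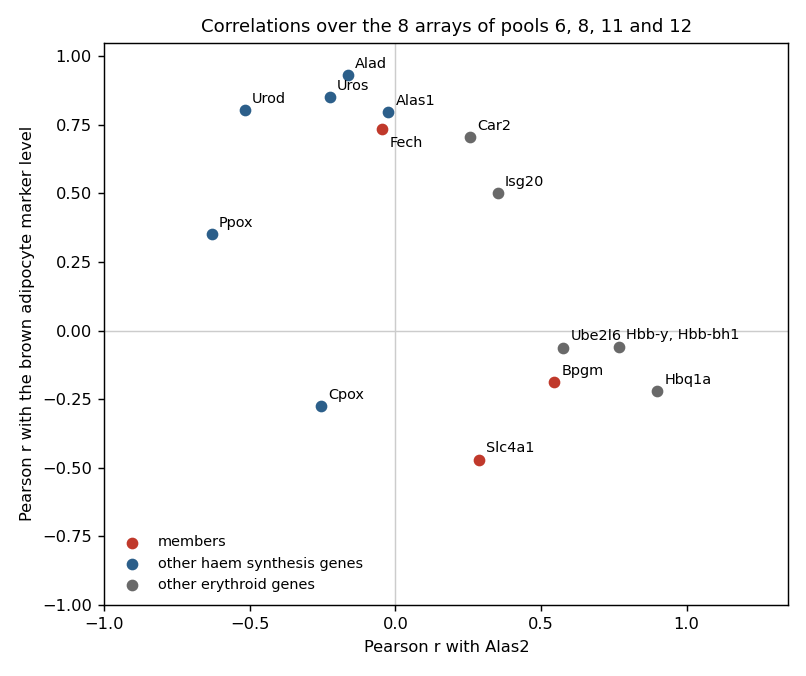
Pearson r of each gene or probe with Alas2 (x axis) and with the mean log2 level of 8 brown adipocyte markers (y axis) over the 8 arrays of pools 6, 8, 11 and 12. Fech, at -0.045 and 0.737, lies with Alas1, Alad, Uros and Urod, while Bpgm, at 0.546 and -0.188, lies with the probe for Hbb-y and Hbb-bh1. Car2, at 0.26 and 0.71, and Isg20, at 0.35 and 0.50, are positive on both axes, so the genes do not split cleanly.

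Genes of late red cell maturation were partly high in pool 1, an order found in 4.24% of all probes that stand for a gene. Of 10 measured, 4 had both pool 1 arrays highest: Isg20, Ube2l6, Trim10 and Tspo2, named after their values were seen. Isg20, an exonuclease gene, read 4.06 and 4.45 log2 units on the infrarenal and suprarenal arrays of pool 1, and 2.50 to 3.04 on the other 8. Its r with the brown adipocyte level was 0.538 (rho 0.709), and 0.502 without pool 1. Ube2l6, a conjugating enzyme for the ubiquitin-like ISG15, read 4.72 and 5.09 against 3.24 to 3.92. Isg20 had the smallest adjusted p of the pool test among list genes, 0.0892, and did not pass. Mkrn1, Xpo7 and Ube2o of the same list did not have both pool 1 arrays above the other 8, although suprarenal array 1 was highest for Mkrn1, at 3.985, and for Xpo7, at 4.577.

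Other red cell lists held fewer such genes. The share over all probes that stand for a gene was 4.24%, so the smallest of these counts say little. Among 15 red cell enzyme genes they were Bpgm, Car2 and Tpi1. Car2, carbonic anhydrase, read 1.61 and 2.46 on the infrarenal and suprarenal arrays of pool 1 and 0.19 to 0.94 on the others. Its r with the brown adipocyte level was 0.599 (rho 0.85), and 0.706 without pool 1. Among 18 membrane and skeleton genes they were Slc4a1 and the blood group gene Kel, both dim, and among 18 genes of erythroid factors and receptors Jak2 and Nfe2. Gata1, the leading erythroid factor, ranged 1.44-fold over the arrays, and Klf1 was at the floor on 2 of 10. Among 13 iron genes they were Slc25a37, the mitochondrial iron importer, at 2.37 and 2.78 against 1.65 to 2.11, and Ftl1, of ferritin. Among 13 genes of haem transport and breakdown, Abcg2 had this order. Over all 182 list genes other than members with a value on every array, 25 had both pool 1 arrays highest and 0 passed the pool test in limma.

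Many platelet markers and a few neutrophil markers had the same leading arrays, beside 4.24% of all probes that stand for a gene. Of 12 platelet markers, 7 had both pool 1 arrays highest: Itga2b, Gp9, Ppbp, Gp1bb, Gp5, Treml1 and Clec1b. Their list level was 2.03 on infrarenal and 2.71 on suprarenal array 1, and 0.94 to 1.69 on the other 8. Ppbp, a platelet chemokine, read 4.69 and 5.63 in pool 1 against 1.65 to 4.20. Pf4 ranged 1.40-fold and Itgb3 1.24-fold, with no lead of pool 1. Of 11 neutrophil markers 3 had this order, Cxcr2, S100a9 and Retnlg, with a list level of 0.01 and 0.30 in pool 1 and -0.68 to -0.01 on the others. The neutrophil markers Csf3r and Mmp9 were lowest on both pool 1 arrays: Csf3r read -0.20 and -0.38 there against -0.04 to 0.49, and Mmp9 -0.21 and -0.53 against -0.10 to 0.87. Of 8 T and B cell markers and 8 macrophage markers, 0 had both pool 1 arrays highest, which in lists this short is near the 4.24%.

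The platelet level correlated with Alas2 at r = 0.819 (rho 0.552) over 10 arrays and at 0.174 without pool 1, and the neutrophil level at 0.805 (rho 0.552) and 0.410. Infrarenal array 6 was next after pool 1 in Alas2, at 5.44, and in platelet level, at 1.69. Suprarenal array 8 came next in Alas2, at 5.22, and had a platelet level of 1.23. Suprarenal array 12 and infrarenal array 11 had platelet levels of 1.64 and 1.59, with low Alas2 values of 4.51 and 4.53. The part of these blood cell signals in the pool pattern was not tested.

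**Figure D4:**
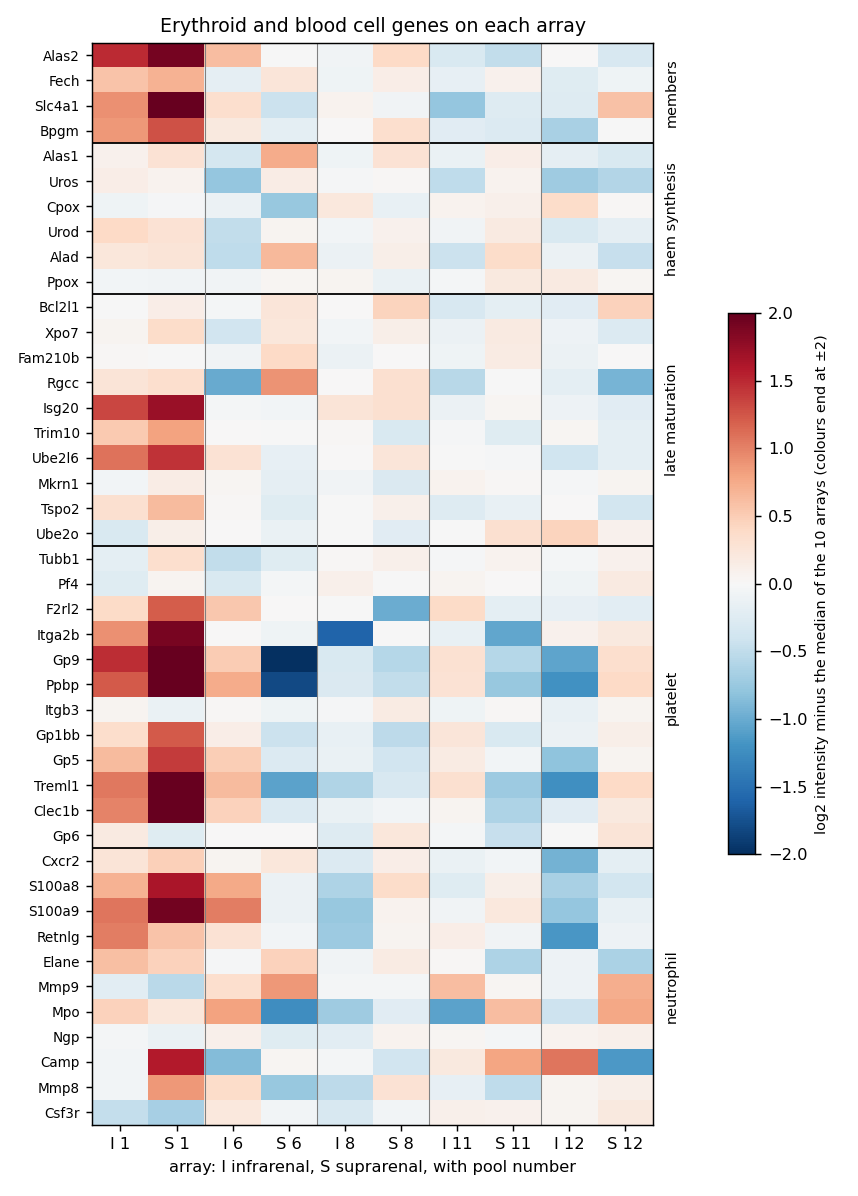
Log2 intensity minus the gene's median over the 10 arrays, for the members, the other haem synthesis genes and the lists of late maturation, platelet and neutrophil genes, with arrays ordered by pool and infrarenal left of suprarenal. Alas2, Bpgm, Isg20, Ube2l6 and 7 of 12 platelet markers are highest (red) on both pool 1 arrays, and of the 6 other haem synthesis genes only Urod is.

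In the fit made here, the comparison of infrarenal with suprarenal aorta of the same pools called none of the members. By limma with the pool as a block, 0 of 36061 probes passed in either direction (0% higher and 0% lower), while 2726 had an unadjusted p under 0.05, or 7.56% (3.05% higher and 4.51% lower in infrarenal aorta). Alas2 averaged 5.18 ± 0.73 log2 units in infrarenal and 5.13 ± 0.96 in suprarenal aorta (SD, n = 5 each). The limma difference was 0.05 ± 0.16 (SE), with a 95% interval from -0.33 to 0.43 and an adjusted p of 0.940. Alas2 was higher in infrarenal aorta in 3 pools and lower in 2.

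Fech had the smallest p of the members. It averaged 4.45 ± 0.34 log2 units in infrarenal and 4.68 ± 0.29 in suprarenal aorta (SD, n = 5 each), with a difference of -0.23 ± 0.07 (SE) in limma. Its 95% interval ran from -0.40 to -0.06, with an unadjusted p of 0.0148 and an adjusted p of 0.639, and it was lower in infrarenal aorta in 5 of 5 pools. The unadjusted p was 0.204 in limma with no replicate block, and 0.104 after quantile normalization, where the difference was -0.112. A negative sign in all 5 pools was found in 5.24% of probes, and an unadjusted p under 0.05 with a negative difference in 4.51%. Of the 4 members, 1 met both. A higher infrarenal value in all 5 pools, found in 3.85% of probes, was seen in 0 members.

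Bpgm and Slc4a1 had wide intervals. Bpgm averaged 3.24 ± 0.56 in infrarenal and 3.43 ± 0.63 in suprarenal aorta (SD, n = 5 each), with a difference of -0.19 ± 0.15 (SE; 95% interval -0.53 to 0.15; limma adjusted p = 0.720). Slc4a1 averaged -2.63 ± 0.64 in infrarenal and -2.26 ± 1.12 in suprarenal aorta (SD, n = 5 each), with a difference of -0.37 ± 0.35 (SE; 95% interval -1.17 to 0.44; limma adjusted p = 0.758). Slc4a1 differed by -1.38 in pool 1 and by 0.78 in pool 6, so pools disagreed in sign. The probe for Hbb-y and Hbb-bh1 differed by 0.08 ± 0.17 (SE; limma adjusted p = 0.903) and the probe for Fcrls and Hba-a1 by -0.09 ± 0.08 (limma adjusted p = 0.748).

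Of the 8 haem synthesis genes, 5 were lower and 3 higher in infrarenal aorta, with a median difference of -0.21 beside -0.049 over all genes, and 0 passed. Fech and Alas1 had unadjusted p under 0.05. Alas1 differed by -0.36 ± 0.16 (SE), Alad by -0.38 ± 0.20 and Uros by -0.33 ± 0.16, while Cpox differed by 0.25 ± 0.12 and Ppox by 0.00 ± 0.09. In the fit, the largest negative differences were those of genes that also followed the brown adipocyte level, whose list of 9 measured markers had a median difference of -0.57.

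**Figure D5:**
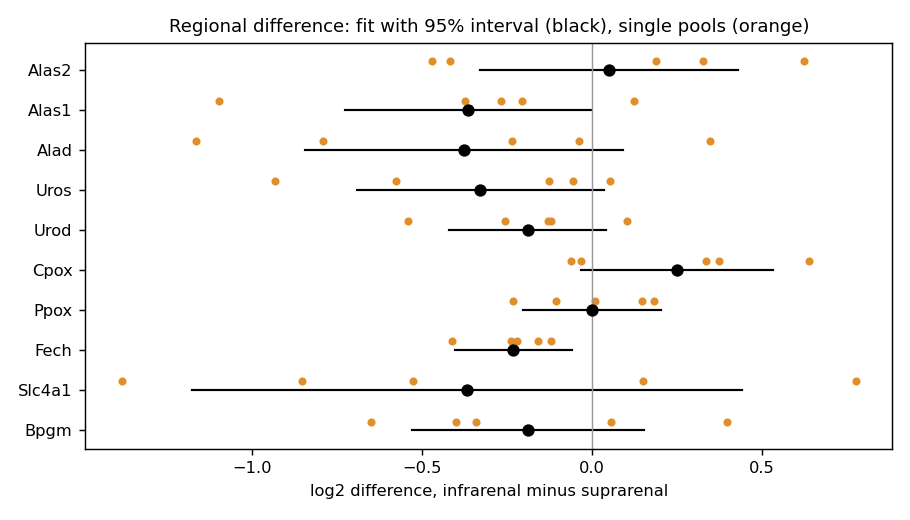
Log2 difference, infrarenal minus suprarenal, for the members and the other haem synthesis genes, as the limma estimate with its 95% interval (black) and in each of 5 pools (orange). The interval of Fech, -0.40 to -0.06, leaves out 0 before adjustment and with the pool as a block, and the pools of Alas2 fall on both sides of 0.

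No regional call was made in the other red cell lists either. Of 18 membrane genes 15 were lower in infrarenal aorta (median -0.11), with Rhag, a Rh-associated glycoprotein, at -0.12 and the urea transporter gene Slc14a1 at -0.19 having the smallest p. Of 15 enzyme genes 13 were lower (median -0.15), with the glycolytic Pgk1 at -0.39 ± 0.14 (SE) and Car1 at 0.30 ± 0.11. Of 18 factor and receptor genes 13 were lower (median -0.15), with Tal1, a partner of GATA1, at -0.32 ± 0.08 and Zbtb7a at -0.25 ± 0.07. Of 13 iron genes 12 were lower (median -0.20), with the iron regulatory gene Ireb2 at -0.21 and Fth1, of ferritin, at -0.18. Of 10 late maturation genes 7 were lower (median -0.08), with Bcl2l1 at -0.34 and Xpo7 at -0.24. Of 13 genes of haem transport and breakdown 10 were lower (median -0.07), with the porphyrin transporter gene Abcb6 at -0.41 and the haem oxygenase gene Hmox2 at -0.32. For the named genes of these lists the limma adjusted p ran from 0.639 to 0.715. Over all probes, with or without a named gene, 54.2% had a negative difference. The lists hold 1 probe per gene, and the share over such probes was not counted. The median difference was -0.049 over genes and -0.023 over all probes.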

How the data were processed

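RNA of 10 pooled aorta samples was measured on 1 single-colour array each. Per the labels' protocols, total RNA was amplified into biotin-labelled cRNA and stained with Cy5-streptavidin. The authors deposited intensities on a linear scale, already brought to a common array median, as the values themselves show. No source used here names the scanner, background correction or scaling. Intensities below 0.0278 (percentile 1 of positive values) were raised to it before log2, which compresses dim probes. Probes needed 3 values per region (36061 of 36227). Probes were named through the platform annotation, with symbols brought up to date by Entrez identifier from RefSeq's GRCm38.p6 table: 21615 probes had 1 gene (21487 matched by identifier), 681 several and 13931 none. Promoter windows were matched by symbol and are shown for 3 of the 6 genes, with that of Fech left out.

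The regional comparison used limma 3.58.1 under R 4.3.3 (mean-variance trend, pool as a block, two-sided, Benjamini-Hochberg over all probes, threshold 0.05). The pairing comes from the series' design text, in which each pooled group was divided into both regions. Arrays were matched by the number in their titles. Deviations of paired arrays correlated at 0.245, -0.008, 0.021, -0.244 and -0.184 in pools 1, 6, 8, 11 and 12. On simulated data the fit was tested before use. The members and the 19 gene lists (187 of 226 entries measured) were chosen with earlier results of these data known. Named genes were the members, all haem synthesis and globin genes, the 2 of smallest p in the erythroid lists, the 8 genes most like Alas2 (brighter 70% of probes) and Apoe. Others were named after their values were seen. The fit was repeated after quantile normalization, with 0.2701 (percentile 25) added instead of a floor, without the dimmest 30% of probes, without each pool in turn, with no block, with no trend, with weighted arrays, with RNA input as a covariate and with a gene's probes averaged. The F-test between pools and the values without pool 1 were added after the data were seen. With the pool as a block, differences between pools are taken out, and regional p-values rest on how far the differences within pools vary. The F-test sets the pools against that same residual spread. Its only replicates of a pool are the 2 regions of the same mice.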

Additional observations from a re-analysis of the deposited data

Results flagged for a closer look

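Among 126 sets of 5 arrays from 1 region, over 63 named genes and probes, 10 held 1 array well apart from its region's remaining arrays. About 1 set in 20, or 6.3 sets, would be found so by chance. Of these, 8 were arrays of pool 1, and the genes concerned were partly named because pool 1 was high. On infrarenal array 1, Fech read 5.04 against 4.22 to 4.38, Car2 1.61 against 0.49 to 0.79, Isg20 4.06 against 2.61 to 2.99 and Olfr1124 2.41 against 0.51 to 1.02. On suprarenal array 1, C130050O18Rik read 3.83 against 1.58 to 2.09, Isg20 4.45 against 2.50 to 3.04, Ube2l6 5.09 against 3.44 to 3.88 and Olfr1124 2.72 against 0.12 to 0.81. Suprarenal array 12 stood low for Uros, at 0.48 against 1.08 to 1.21, and for Pparg, of adipocytes, at 2.72 against 4.42 to 4.62.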

How the results depend on the processing

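No member passed the regional test under any of the alternatives run, and Fech, Bpgm and Slc4a1 were lower in infrarenal aorta under each. Slc4a1 was left out with the dim probes. The Alas2 difference turned to -0.0936 without pool 6 and -0.0195 without pool 12, and was 0.180 without pool 8. Leaving out pools moved Fech between -0.258 and -0.185, Bpgm between -0.333 and -0.0721 and Slc4a1 between -0.652 and -0.113. After quantile normalization the differences were 0.171 for Alas2, -0.112 for Fech, -0.0863 for Bpgm and -0.4915 for Slc4a1. The smallest adjusted p of Fech was 0.410. With no replicate block Fech, Bpgm and Slc4a1 differed by -0.231, -0.188 and -0.367, as with it, and the unadjusted p of Fech was 0.204 in place of 0.0148. After quantile normalization 1 probe passed, and the count at an unadjusted p under 0.05 ran from 1475 without pool 6 and 1801 without pool 8 to 3931 without pool 12. The cause was not tested. All 4 members kept pool 1 highest after quantile normalization and with the offset. Averaging a gene's probes cannot change a member, each having 1 probe. No member passed the pool test under any alternative. Without pool 1 its adjusted p was 0.995 for each member, and the ranges were 1.10 for Alas2, 0.479 for Fech, 1.37 for Slc4a1 and 0.992 for Bpgm. The pool test called 5 probes, and between 0 (no variance trend) and 6 (quantile normalization) under the alternatives. Dim probes such as Slc4a1 are noisier, and the median half-width of a 95% interval was 0.36 log2 units.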

Other observations

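Sptb and Ank1, genes of the red cell skeleton that are also known from muscle, did not follow Alas2. Sptb, which encodes beta spectrin, was highest on suprarenal array 12, at 1.84, and correlated with the level of 9 skeletal muscle markers at r = 0.915 (rho 0.952) over the 10 arrays, and at 0.917 without the 2 farthest. Ank1, erythroid ankyrin, was highest on the same array, at 0.65, with r = 0.898 (rho 0.891), and 0.864 without the 2 farthest. Their r with Alas2 was 0.011 and -0.190. Tmod1 of the same list, on a dim probe, had r = 0.0055 with the skeletal muscle level and 0.266 (rho 0.515) with Alas2. Of the globins outside red cells, the brain globin gene Ngb correlated with the brown adipocyte level at r = 0.841 (rho 0.830), and 0.751 without the 2 farthest arrays, while myoglobin, Mb, had r = -0.221 with that level and 0.3996 with skeletal muscle. Cytoglobin, Cygb, ranged 1.42-fold and had r = -0.180 with the brown adipocyte level and -0.00290 with Alas2. Hp, which encodes the haemoglobin-binding haptoglobin, had r = 0.785 (rho 0.697) with the brown adipocyte level and 0.282 with Alas2. These are correlations across arrays that share animals within a pool, and are given as values.

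Of the lists of vessel and neighbouring tissue, the count of genes with both pool 1 arrays highest was 0 of 8 for smooth muscle, 1 of 8 for endothelium, 0 of 8 for brown adipocytes, 0 of 6 for adipocytes, 0 of 9 for skeletal muscle and 0 of 8 for sympathetic neurons. The share over all probes that stand for a gene was 4.24%, so counts of 0 or 1 in lists this short are near it. The median regional differences of these lists were 0.06, 0.03, -0.57, -0.24, 0.41 and -0.19, and those of platelet, neutrophil, T and B cell and macrophage markers -0.04, -0.11, -0.03 and -0.31, with 0 genes past the limma test. The knocked-out gene, Apoe, read -4.14 ± 0.93 log2 units in infrarenal and -3.58 ± 0.74 in suprarenal aorta (SD, n = 5 each), at the dim end of the scale.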
